A study of Mus musculus with 8 samples.

Results

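A set of 196 genes was selected on expression in CCL21-RANK+ thymic epithelial cells (TECs) and near absence from the other sorted TECs. A gene was taken when each of the 3 CCL21-RANK+ libraries held at least 50 counts and each of the 5 other libraries held at most 3. Of the 55450 genes in the deposited table, 235 met both conditions. Of these, 39 were left out by symbol, among them predicted genes, keratins, Hox genes, collagens, immunoglobulins, mucins, and several enzyme and inhibitor families. The remaining 196 made up 0.353% of the table, and 192 of them were protein-coding. Because these counts chose the genes, their difference from the other TECs is given as a description, without a test. In the strict sense, 44 members were at 0 counts in all 5 other libraries. The other 152 had at least 1 count there, so "detected only in RANK+ mTECs" is a statement about a threshold.

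The libraries came from thymuses of embryonic day 17 (E17) mice that carried 2 reporters, a tdTomato knock-in at *Ccl21a* and a Venus transgene for *Tnfrsf11a*, the gene that encodes RANK. CD45-EpCAM+ cells were sorted as CCL21+RANK- (3 libraries), CCL21-RANK+ (3 libraries), or CCL21-RANK- (2 libraries), and every group carried both reporters. The gates read reporter fluorescence, so they follow the reporters and not the CCL21 and RANK proteins themselves. The labels do not say whether libraries of one group came from separate litters or embryos, so p-values measure only the spread between these libraries. RNA was sequenced in bulk, where fewer cells that express a gene and less RNA per cell cannot be told apart. The CCL21-RANK+ libraries held 57286773, 50146758, and 42751858 counts, the CCL21+RANK- libraries 59677342, 46003149, and 55116934, and the CCL21-RANK- libraries 67451448 and 71625319.

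Medullary TECs (mTECs) show developing T cells a wide range of proteins that otherwise belong to single peripheral tissues. RANK signalling drives mTEC maturation, and the nuclear protein Aire promotes the transcription of many such tissue-restricted genes. Other mTECs take on lineage transcription factors of peripheral cell types and resemble those cells, and they are called mimetic cells. Promiscuous expression of this kind is known to be patchy, with any one antigen made by a small share of mTECs.

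The sorted cells carried the genes that mark RANK+ mTECs. In RPKM, counts scaled to exon length and library total, *Tnfrsf11a* measured 111, 93.1, and 107 in CCL21-RANK+ replicates 1, 2, and 3, between 8.78 and 10.3 in CCL21+RANK- TECs, and 2.62 and 2.26 in CCL21-RANK- TECs. *Aire* reached 131, 94.1, and 114 RPKM in these replicates and no more than 0.81 RPKM in any other. *Fezf2*, a transcription factor that also drives tissue-restricted genes, was at 98.9, 70.7, and 82.2 RPKM against at most 0.53 RPKM elsewhere. In the quasi-likelihood test of edgeR, adjusted by Benjamini and Hochberg's method over the 21451 genes tested, the log2 fold changes over CCL21+RANK- TECs were 3.33 ± 0.13 (SE) for *Tnfrsf11a* (adjusted p = 2.19e-07), 7.11 ± 0.567 for *Aire* (adjusted p = 6.67e-06), and 8.62 ± 0.694 for *Fezf2* (adjusted p = 6.96e-06). For each of these 3 genes, every CCL21-RANK+ library lay above every other library. The sort gated on the *Tnfrsf11a* reporter, so the difference in *Tnfrsf11a* follows from the gate and is no independent check. *Tnfrsf11a* is also among the 20 listed genes counted next. To be called, a gene needed an adjusted p under 0.05, a fold change above 1.5, and more than 1 RPKM on average in the higher group. Of 20 listed RANK+ mTEC genes, none of them a member, 15 were called higher than in CCL21+RANK- TECs and 2 lower (*Ciita* and *Hipk3*), where 15.4% of all tested genes were called higher and 15.4% lower. Against CCL21-RANK- TECs, 17 were called higher and 1 lower (*Hipk3*), where 14.4% of all tested genes were called higher and 15.1% lower. The median log2 fold change of the list was 2.86 and 4.11 in these comparisons, against 0.112 and 0.062 over all tested genes. The comparisons share the CCL21-RANK+ libraries.

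Expression of the members in the CCL21-RANK+ libraries was low. Their mean levels ran from 0.155 to 20.5 RPKM with a median of 1.35 RPKM, and 114 of the 196 were above 1 RPKM. Among the 18016 genes with at least 10 counts in every CCL21-RANK+ library, the median was 2.93 RPKM, and 35.1% of those genes lay below the median of the members. The members together took 0.128%, 0.0499%, and 0.0635% of all counts in CCL21-RANK+ replicates 1, 2, and 3. In the other libraries the whole set summed to 58, 84, and 56 counts in CCL21+RANK- replicates 1, 2, and 3, and to 134 and 83 counts in CCL21-RANK- replicates 1 and 2. These stray counts were spread over both populations, with 39 members counted only in CCL21+RANK- libraries, 46 only in CCL21-RANK- libraries, and 67 in both. For the 44 members without any count elsewhere, 3 counts per library is the limit that a count of 0 allows, and on that floor the mean of the CCL21-RANK+ libraries was at least 26.4 to 152-fold higher than in the others, with a median bound of 48.5-fold. Without CCL21-RANK+ replicate 1 the median bound was 34.2-fold and the lowest 21.9-fold, and the bound of 11 of the 44 fell by more than 1.5 times. Intervals and floors of this kind cover counting error only.

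**Figure D1:**
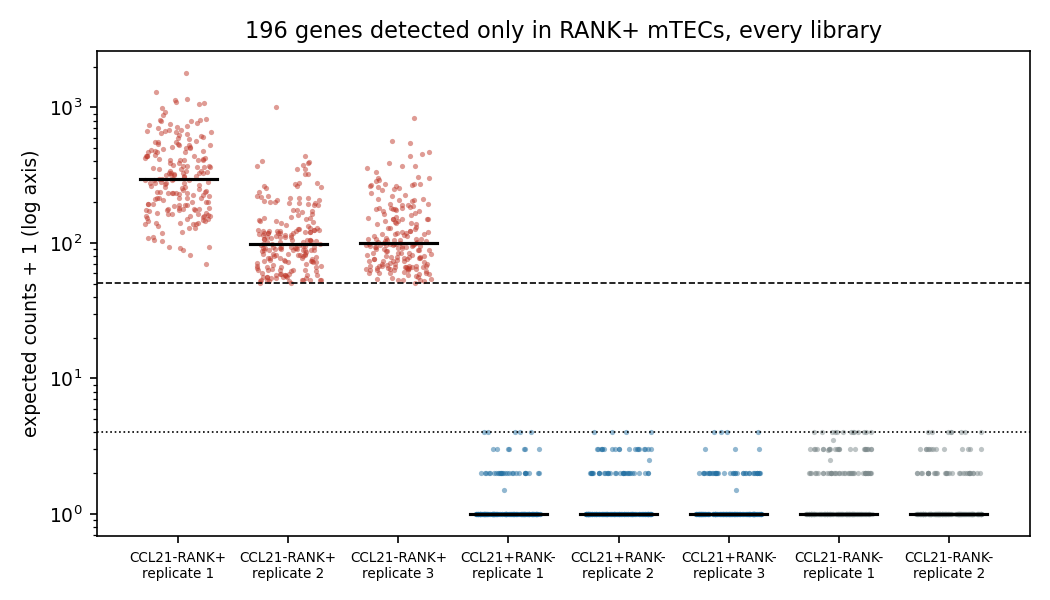
Expected counts plus 1 (log axis) of the 196 members in each of the 8 libraries. Each point is a gene, black bars are medians, and the dashed and dotted lines mark the thresholds of 50 and 3 counts that chose the genes. CCL21-RANK+ replicate 1 lies above replicates 2 and 3, with 73064 counts over the set against 24999 and 27138.

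CCL21-RANK+ replicate 1 was the highest of its group for most of these genes, and also for most genes of other sets typical of RANK+ mTECs. After scaling by edgeR's trimmed mean of M-values (TMM), 173 of the 196 members (88.3%) were highest in replicate 1, 11 in replicate 2, and 12 in replicate 3. Among 6768 other genes with at least 50 counts in each CCL21-RANK+ library and mean depth-scaled counts (CPM) in the range of the members, 41.6% were highest in replicate 1. Of those, 1413 were also called higher than in CCL21+RANK- TECs, and 62.6% of them were highest in replicate 1. The CPM in replicate 1 over the mean of the other replicates had a median of 1.94 in the members, 1.00 in the 6768 genes, and 1.34 in the 1413. Of the 39 genes left out by symbol, 82.1% were highest in replicate 1, with a median ratio of 1.98. So were 17 of the 20 listed RANK+ mTEC genes (85.0%, median ratio 1.46). The same held for 37 of 39 tissue-restricted secreted proteins and 23 of 25 tissue-restricted peptides and hormones, lists that each hold 4 members. In lists described below, replicate 1 was highest for 25 of 35 membrane, sensory and neural proteins and 12 of 16 mimetic lineage factors. It was highest for 22 of 29 cytokine and immune effector genes and for only 12 of 20 germ cell proteins. With DESeq2's size factors in place of TMM, the share highest in replicate 1 was 90.8% of members and 49.3% of the 6768 genes, and with scaling on library totals 91.3% of members and 3385 of the 6768 genes. Replicate 3 exceeded replicate 2 in 142 members (72.4%), against 51.6% of the 6768 genes. Replicate 1 also detected more genes, with 21454 genes at 10 counts or more against 19585 and 19666. The coefficient of variation (CV) of the CPM over the 3 libraries had a median of 46.0% in the members and 20.1% in the 6768 genes. Without replicate 1 the thresholds chose the same 196 genes, their median level was 0.907 RPKM, and 13 of the 15 most abundant remained among the first 15.

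Markers of some other cell types were also highest in replicate 1, and others were not. Replicate 1 was the highest CCL21-RANK+ library for 9 of 10 myeloid and dendritic cell markers and 8 of 10 B cell markers. The same held for 10 of 10 mesenchymal and endothelial, 6 of 6 parathyroid, and 1 of 6 erythroid markers. The 10 myeloid and dendritic cell markers summed to 60.5, 18.5, and 21.6 RPKM in CCL21-RANK+ replicates 1, 2, and 3 and to 0.144 to 0.416 RPKM in the other libraries. Most of that sum was *Lyz2*, lysozyme, at 52.3, 14.7, and 17.8 RPKM. Of the 8 markers of this list that were tested, 3 were called higher than in CCL21+RANK- TECs, and none of the 10 was at 0 in all CCL21-RANK+ libraries. *Ptprc*, which encodes the CD45 protein used to exclude blood cells from the sort, was at 0.576, 0.177, and 0.422 RPKM in CCL21-RANK+ libraries, 0.193, 0.112, and 0.0684 RPKM in CCL21+RANK- libraries, and 0.0518 and 0.0351 RPKM in CCL21-RANK- libraries. The 10 B cell markers summed to 35.5, 21.2, and 26.0 RPKM, led by *Blnk* at 11.7, 8.44, and 9.69 RPKM, and to 0.537 to 2.22 RPKM elsewhere, and 5 were called higher than in CCL21+RANK- TECs. The 10 thymocyte markers summed to 22.1, 9.92, and 18.6 RPKM and to 3.49 to 12.5 RPKM elsewhere, led by *Rag1*, and 4 of them were highest in replicate 1. Of these 10, 2 were called higher than in CCL21+RANK- TECs, near the 15.4% of all tested genes, and 5 higher than in CCL21-RANK- TECs. The 10 mesenchymal and endothelial markers summed to 28.1, 19.0, and 17.1 RPKM and to 1.19 to 2.61 RPKM elsewhere, led by *Dcn*, and of 9 tested 4 were called higher. The sum of the 6 erythroid markers was lowest in replicate 1, at 184, 285, and 300 RPKM, and ranged more widely elsewhere, at 6.61, 164, and 59.4 RPKM in CCL21+RANK- libraries and 453 and 57.1 RPKM in CCL21-RANK- libraries. The 6 parathyroid markers summed to 7280, 1780, and 2000 RPKM in CCL21+RANK- replicates 1, 2, and 3, to 28.5, 13.4, and 13.9 RPKM in CCL21-RANK+ libraries, and to 24.7 and 22.5 RPKM in CCL21-RANK- libraries. The test called all 6 lower in RANK+ mTECs than in CCL21+RANK- TECs, where 15.4% of all tested genes were called lower. Against CCL21-RANK- TECs 2 were called higher and 1 lower, beside 14.4% and 15.1% of all tested genes. Their most abundant gene, *Chga*, reached 4060, 878, and 1020 RPKM in CCL21+RANK- replicates 1, 2, and 3. The part of these cell types in the members' levels was not tested.

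**Figure D2:**
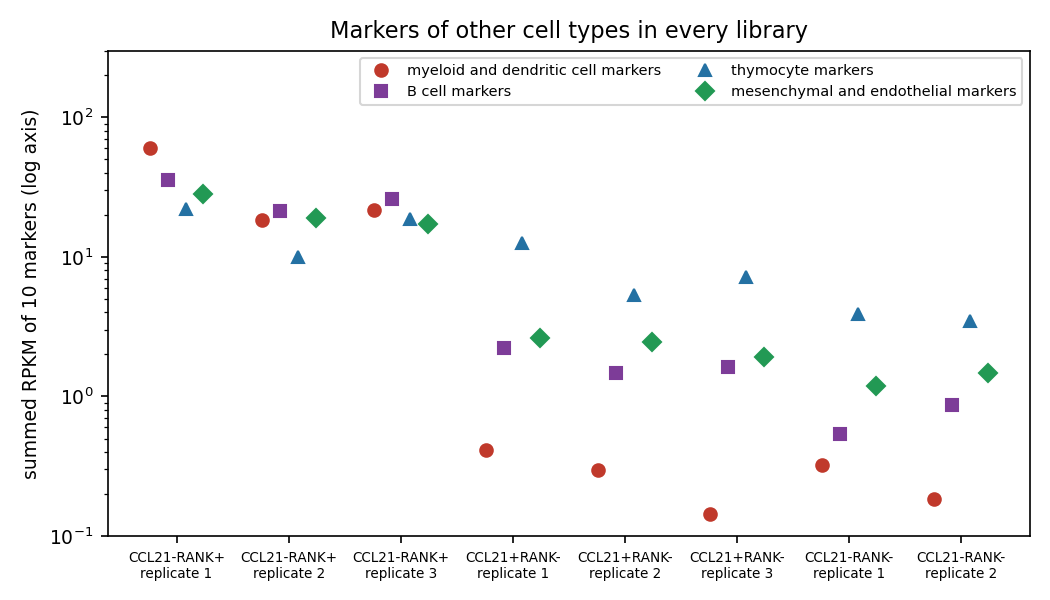
Summed RPKM (log axis) of the 10 markers of each of 4 other cell types, one point per list in each of the 8 libraries. The myeloid and dendritic cell markers show the largest gap among these lists, from 60.5 RPKM in CCL21-RANK+ replicate 1 to 0.144 RPKM in CCL21+RANK- replicate 3.

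The promoters of the members were described by their CpG content and by a TATA motif. RefSeq promoter windows (GRCm38.p6), from 250 bases before to 50 bases after the start site, were matched for 154 of the 192 protein-coding members (80.2%). A window was called CpG-rich when its GC content was at least 50% and CpG dinucleotides reached at least 0.6 of the number expected from its base composition. By that rule 32 members (20.8%) had a CpG-rich window, against 59.2% of 13037 tested protein-coding genes and 41.6% of all 20592 genes with a window. Another reference is the 3980 other protein-coding genes with windows that also had 3 or fewer counts in each of the 5 other libraries, whatever their level in RANK+ mTECs. Among these, 4.85% were CpG-rich. The share differed with expression in RANK+ mTECs, with 1.48% of the 2164 genes that had 3 or fewer counts in all 8 libraries, 8.87% of the other 1816, and 13.8% of the 428 with at least 10 counts in each CCL21-RANK+ library. The motif TATAAA, read on the gene's strand and starting between 40 and 20 bases before the start site, was found in 11 members (7.14%), in 2.14% of tested protein-coding genes, in 2.55% of all genes with a window, in 6.08% of the 3980 genes, and in 7.71% of the 428. Protein-coding members had a median exon length of 2634 bases and a median of 7 exon blocks, against 4132 bases and 9 blocks in tested protein-coding genes. No test was made of these differences.

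**Figure D3:**
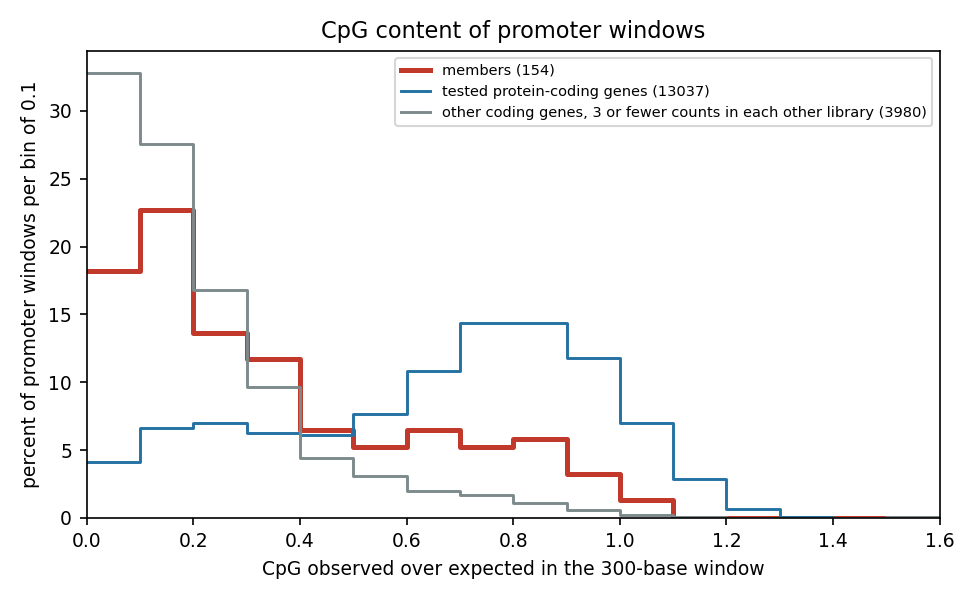
Share of promoter windows (percent per bin of 0.1) by their ratio of observed to expected CpG, for 154 protein-coding members, 13037 tested protein-coding genes, and 3980 other protein-coding genes with 3 or fewer counts in each library outside CCL21-RANK+. The members peak at low ratios like the last set (medians 0.249 and 0.155, against 0.709 in tested genes) and carry a tail of windows above 0.6.

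Promoters of 4 members with the TATAAA motif are shown to let the motif's place be read, each as the 60 bases that end just before the RefSeq start site, 5′ to 3′ on the gene's strand, with the motif in capitals. They are *Mt4*, a metallothionein of stratified epithelium (chr8:94137144-94137203, plus strand), *Rln3*, the neuropeptide relaxin 3 (chr8:84044980-84045039, minus strand), *Myoc*, myocilin of the eye's outflow tissue (chr1:162639090-162639149, plus strand), and *Crybb1*, a lens crystallin (chr5:112255760-112255819, plus strand).
Mt4: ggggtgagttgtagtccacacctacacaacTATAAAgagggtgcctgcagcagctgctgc
Rln3: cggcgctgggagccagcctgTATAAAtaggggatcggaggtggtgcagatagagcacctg
Myoc: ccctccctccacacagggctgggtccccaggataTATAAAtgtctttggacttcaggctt
Crybb1: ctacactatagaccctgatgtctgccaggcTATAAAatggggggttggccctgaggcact
By functional group, the motif was in 3 of 8 windows of eye, ear and taste genes, 3 of 22 of ungrouped genes, 2 of 24 of transcription and lineage factors, 1 of 18 of peptides, hormones and receptors, 1 of 11 of gut, stomach and pancreas genes, and 1 of 4 of skin genes. It was in none of the 26 immune, 18 neural, 11 liver and plasma, 9 germ cell and placental, and 3 muscle windows.

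CpG-rich windows were unevenly spread over the functional groups described below. In these, 14 of 24 transcription factor windows (58.3%) were CpG-rich, 7 of 18 windows of neural genes (38.9%), and 6 of 18 windows of peptides, hormones and their receptors (33.3%), against 0 of 26 windows of immune and granule genes. These groups are small and were formed after the members were known. Promoters of 4 CpG-rich members are shown in the same frame for contrast, with every CG in capitals. They are *Npy*, neuropeptide Y (chr6:49822650-49822709, plus strand), *Trh*, thyrotropin-releasing hormone (chr6:92244651-92244710, minus strand), *Msx3*, a homeodomain factor of the dorsal neural tube (chr7:140049089-140049148, minus strand), and *Neurog1*, a proneural factor (chr13:56252181-56252240, minus strand).
Npy: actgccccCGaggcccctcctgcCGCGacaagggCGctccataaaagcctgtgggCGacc
Trh: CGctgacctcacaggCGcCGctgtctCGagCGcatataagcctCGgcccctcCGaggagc
Msx3: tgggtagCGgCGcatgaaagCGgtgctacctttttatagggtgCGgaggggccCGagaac
Neurog1: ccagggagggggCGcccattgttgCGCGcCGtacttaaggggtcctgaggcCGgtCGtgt
A match to these letters describes the window and does not show a factor's binding.

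The highest mean over the CCL21-RANK+ libraries belonged to *Prg2* (chromosome 2, 84980461 to 84983632), the major basic protein of eosinophil granules. It was at 37.5, 8.76, and 15.3 RPKM in CCL21-RANK+ replicates 1, 2, and 3 and had at most 3 counts in any other library. *Siglec15* (chromosome 18, 78043614 to 78057395), a sialic acid-binding lectin known from osteoclasts, was next at 16.2, 17.4, and 16.8 RPKM. *Siglec15* exceeded *Prg2* in replicates 2 and 3, and without replicate 1 it had the highest mean of the set at 17.1 RPKM. Its replicates were nearly level (CV 8.70%), unlike those of *Prg2* (CV 68.5%). *Myl7* (chromosome 11, 5896637 to 5898782), the atrial myosin light chain, was at 16.8, 9.29, and 10.8 RPKM. *Tff3* (chromosome 17, 31125306 to 31129646), a trefoil peptide of intestinal goblet cells, was at 28.6, 3.72, and 4.22 RPKM and had the highest CV of the set (113%). The next 11 by mean RPKM were *Ly6g*, *Rln3*, *Mt4*, *Iapp*, *Fam25c*, *Sst*, *Nkx2-6*, *Itln1*, *Rarres1*, *Myoc*, and *Ctrb1*. Of these 15 genes, all but *Siglec15* were highest in replicate 1.

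**Figure D4:**
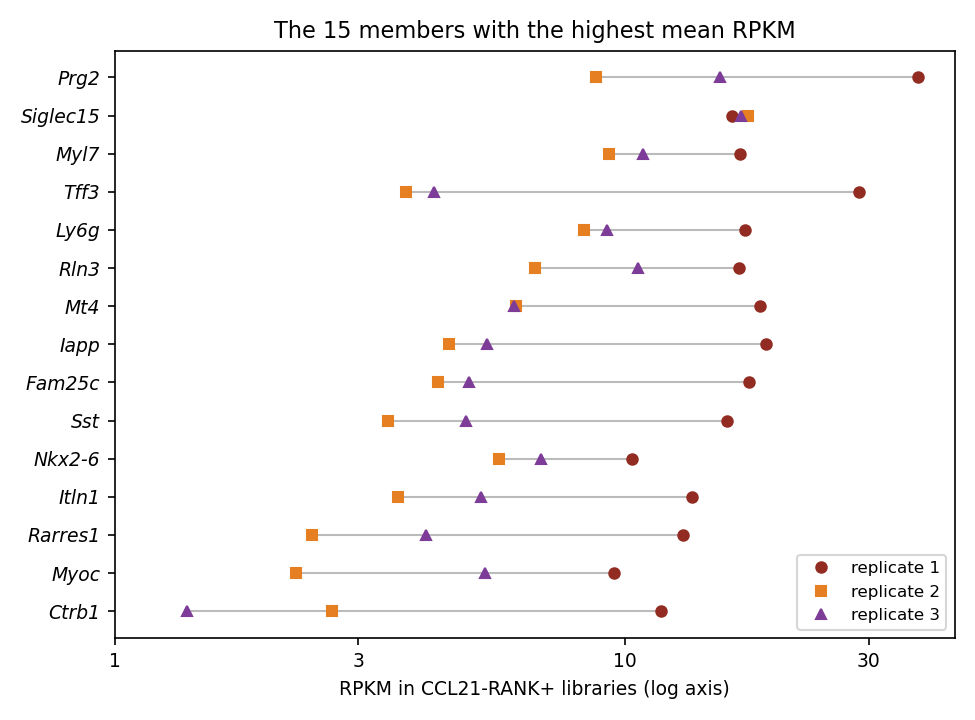
RPKM (log axis) of the 15 members with the highest mean, one symbol per CCL21-RANK+ library and a grey line from the lowest to the highest. *Siglec15* spans 16.2 to 17.4 RPKM, whereas *Tff3* spans 3.72 to 28.6 RPKM.

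For a description by function, 170 members were placed by hand in 10 groups according to their known products, and 26 remained without a group. The groups were formed after the members were known and are not tested. Members were chosen on counts, which are not scaled to length, so a long gene could enter at a lower RPKM than a short gene. This bears on the order of the groups by RPKM.

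Peptides, hormones, secreted signals and their receptors numbered 23, with a median of 3.00 RPKM, the highest of the groups. Among the peptides, *Rln3* (chromosome 8, 84042929 to 84045000) was at 16.7, 6.67, and 10.6 RPKM and at 0 counts in every other library. Its mean was at least 126-fold higher than in the other libraries, and at least 100.1-fold without replicate 1. *Iapp*, the islet amyloid polypeptide co-secreted with insulin, was at 18.9, 4.52, and 5.36 RPKM. *Sst*, somatostatin, was at 15.8, 3.43, and 4.87 RPKM. For each of these 3 peptides replicate 1 was highest, and replicate 2 was lowest. The gut and brain peptide *Nts* (neurotensin) was at 9.23, 1.81, and 3.06 RPKM, and *Npy* was at 7.77, 2.82, and 3.60 RPKM. *Trh*, whose CpG-rich promoter is shown above, was at 5.20, 1.76, and 2.01 RPKM and at 0 counts elsewhere. Enzymes that make catecholamines were present too, with *Pnmt* at 6.25, 2.95, and 3.04 RPKM and *Th*, tyrosine hydroxylase, at 1.23, 0.599, and 0.584 RPKM. Secreted signals included *Lefty2*, a Nodal antagonist, at 5.45, 2.69, and 2.61 RPKM, and *Sost*, the Wnt antagonist sclerostin, at 6.74, 1.67, and 2.09 RPKM. Receptors were members as well. *Ghsr*, the ghrelin receptor, was at 1.26, 0.324, and 0.443 RPKM, and *Ghrhr*, the receptor for growth hormone-releasing hormone, was at 0.831, 0.315, and 0.503 RPKM. A total of 4 members (*Iapp*, *Npy*, *Nts*, and *Sst*) belong to a list of 26 tissue-restricted peptides and hormones. Of the 20 other genes of that list that were tested, 13 were called higher than in CCL21+RANK- TECs and none lower, with a median log2 fold change of 7.05, where 15.4% of all tested genes were called higher. Against CCL21-RANK- TECs 14 were called higher and none lower, beside 14.4% of all tested genes. Among these was *Calcb*, a calcitonin gene-related peptide, at 130, 75.1, and 79.2 RPKM in CCL21-RANK+ libraries and at 0.0287 to 0.446 RPKM elsewhere. The whole list summed to 3.86 to 4.23 RPKM in CCL21+RANK- libraries and to 2.22 and 1.73 RPKM in CCL21-RANK- libraries. Most of its genes were therefore too low there to be called lower, which needs more than 1 RPKM on average in the other group.

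Gut, stomach and pancreas proteins numbered 13 and differed most between replicates, with a median CV of 73.4% and a median ratio of replicate 1 to the others of 3.20. *Tff3* had the highest mean of this group. *Ctrb1* (chromosome 8, 111686519 to 111691010), the pancreatic zymogen chymotrypsinogen B, was at 11.8, 2.66, and 1.39 RPKM, and the intestinal lectin *Itln1* was at 13.5, 3.58, and 5.23 RPKM. *Lypd8*, which keeps flagellated bacteria from the colonic epithelium, was at 7.60, 0.963, and 2.22 RPKM. The antibacterial lectin *Reg3b* was at 6.25, 1.31, and 1.97 RPKM and at 0 counts in all other libraries. Each of these 5 was highest in replicate 1, and *A4gnt*, a gastric mucin glycosyltransferase, came closest to level at 1.11, 1.01, and 0.713 RPKM. Of the group, 4 (*Ctrb1*, *Lypd8*, *Reg3b*, and *Tff3*) belong to a list of 41 tissue-restricted secreted proteins, of which 39 were in the table. Of its 27 other tested genes, 11 were called higher than in CCL21+RANK- TECs and none lower, where 15.4% of all tested genes were called higher. Against CCL21-RANK- TECs 11 were called higher and 2 lower, where the share called higher was 14.4%. The related trefoil gene *Tff2* was at 7.20, 2.22, and 1.88 RPKM but missed both thresholds, with 47 counts in CCL21-RANK+ replicate 3 and 9 counts in CCL21-RANK- replicate 2, and *Reg3g* was at 48.9, 12.8, and 15.2 RPKM and reached 5.60 RPKM in CCL21-RANK- replicate 2.

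Transcription and lineage factors numbered 31 and varied least of the groups, with a median CV of 33.1% and a median ratio of replicate 1 to the others of 1.49. They also held 14 of the 44 members that were at 0 counts in all other libraries. *Nkx2-6* (chromosome 14, 69171802 to 69175518), a homeodomain factor of pharyngeal endoderm and heart, was the most abundant at 10.3, 5.64, and 6.85 RPKM. It was at 0 counts elsewhere, and its mean was at least 152-fold higher than in the other libraries, or at least 129.9-fold without replicate 1, the largest bounds among the 44. *Hand1*, a factor of heart and trophoblast, was at 4.71, 2.77, and 3.05 RPKM. *Cdx2* (chromosome 5, 147300805 to 147307270), which specifies intestinal epithelium, was at 3.60, 1.72, and 2.18 RPKM. Proneural factors formed a run at 0 counts elsewhere. *Neurog1* was at 2.65, 1.10, and 1.79 RPKM, *Neurod2* at 0.772, 0.413, and 0.737 RPKM, and *Neurod4* at 0.819, 0.715, and 0.692 RPKM. *Neurod4* had the lowest CV of the set (5.12%). *Neurog3*, which specifies endocrine cells of pancreas and gut, had 119, 85, and 179 counts and was highest in replicate 3, against the trend of the set. Factors known from early embryo and germ line included *Prdm14* at 1.27, 0.443, and 0.529 RPKM, *Foxh1* at 1.91, 0.847, and 1.94 RPKM, and *Sohlh1* at 4.78, 1.93, and 1.22 RPKM. *Eomes*, a T-box factor of early embryo and cytotoxic lymphocytes, was low and even at 0.382, 0.293, and 0.332 RPKM. *Pax6*, a factor of eye and pancreas, was among the lowest at 0.236, 0.124, and 0.106 RPKM. None of the 16 factors on the list of mimetic lineage factors was a member. Of these 16, 11 were called higher than in CCL21+RANK- TECs and 1 lower, and 11 higher than in CCL21-RANK- TECs and none lower, beside 15.4% and 14.4% called higher among all tested genes. *Insm1*, of neuroendocrine cells, was at 176, 194, and 213 RPKM and at 0.239 to 1.37 RPKM elsewhere, and *Spib*, of microfold cells, was at 146, 120, and 125 RPKM and at 5.78 to 13.4 RPKM elsewhere. *Pou2f3*, of tuft cells, went the other way against CCL21+RANK- TECs. It was at 3.67, 2.93, and 2.94 RPKM in CCL21-RANK+ libraries and 10.8, 9.83, and 10.2 RPKM in CCL21+RANK- libraries. In CCL21-RANK- libraries it was at 3.21 and 4.83 RPKM.

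**Figure D5:**
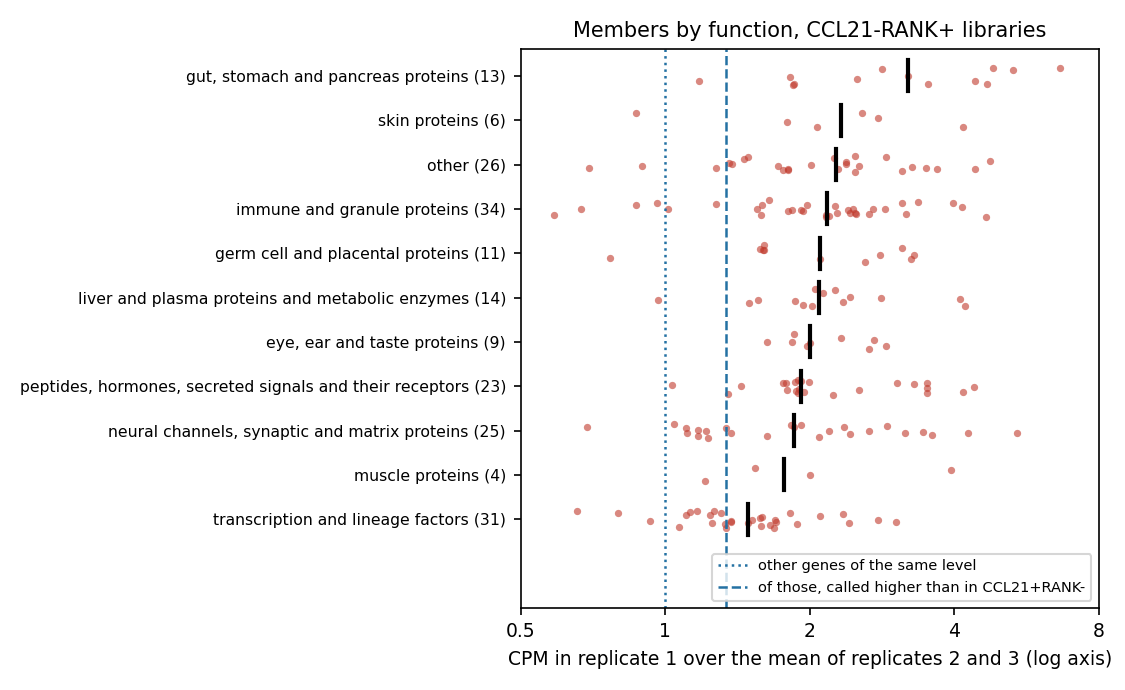
CPM in CCL21-RANK+ replicate 1 over the mean of replicates 2 and 3 (log axis) for each member, by functional group with its number of genes. Black bars are group medians, from 1.49 in transcription and lineage factors to 3.20 in gut, stomach and pancreas proteins, and the blue lines are the medians of 6768 other genes of the same level (1.00) and of the 1413 of them called higher than in CCL21+RANK- TECs (1.34).

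Immune and granule proteins were the largest group with 34 members, a median of 1.5 RPKM, and a median CV of 53.2%. Several belong to granulocytes and mast cells. Beside *Prg2*, its neighbour and relative *Prg3* was at 8.00, 1.83, and 1.87 RPKM. The neutrophil surface protein *Ly6g* was at 17.2, 8.30, and 9.21 RPKM, and the neutrophilic granule protein *Ngp* was at 6.67, 2.45, and 2.66 RPKM. The mast cell protease *Prss34* was at 7.54, 0.964, and 2.03 RPKM. Receptors of lymphocytes were also in the set. *Il23r* was at 5.54, 1.65, and 2.46 RPKM, and *Il7r* at 0.599, 0.744, and 0.903 RPKM. *Il7r* was highest in replicate 3. *Cybb*, the catalytic subunit of the phagocyte oxidase, was at 3.45, 1.19, and 1.75 RPKM. *Lta*, lymphotoxin alpha, was at 3.04, 0.750, and 1.01 RPKM and was the one member on a list of 30 cytokine and immune effector genes. Of the 22 other genes of that list that were tested, 7 were called higher and 1 lower in each comparison, against the shares of 15.4% and 14.4% called higher among all tested genes. Blood cells are known to express many genes of this group. In the same libraries, as given above, the summed myeloid and dendritic cell, B cell, and thymocyte markers were each highest in replicate 1. The erythroid sum was lowest in replicate 1. The part of blood cells in this group's levels was not tested.

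Proteins of brain, eye, ear and taste made up 34 members. The 25 neural channels, synaptic and matrix proteins were the lowest of the groups by median RPKM, at 0.598 RPKM. In CPM, which is not scaled to length, they summed to 118, 59.6, and 73.6 in CCL21-RANK+ replicates 1, 2, and 3. The 23 peptides, hormones, secreted signals and receptors summed to 165, 64.0, and 76.8 CPM. *Syndig1*, a synaptic membrane protein, was the steadiest of the abundant ones at 3.82, 3.17, and 2.84 RPKM. *Ptgds*, the prostaglandin D synthase of brain, was at 6.62, 1.27, and 0.979 RPKM (CV 103%). Potassium leak channels of the K2P family were members. *Kcnk3* was at 0.874, 0.562, and 0.612 RPKM, *Kcnk9* at 0.419, 0.217, and 0.150 RPKM, and *Kcnk10* at 0.732, 0.455, and 0.653 RPKM. *Slc32a1*, which loads GABA and glycine into synaptic vesicles, was at 0.730, 0.663, and 0.552 RPKM and at 0 counts elsewhere. Among the 9 sensory genes, *Myoc* was at 9.49, 2.26, and 5.30 RPKM. The lens crystallins *Cryba4* and *Crybb1* lie side by side on chromosome 5 (112246493 to 112269585). *Cryba4* was at 7.58, 3.45, and 1.76 RPKM and *Crybb1* at 6.01, 1.76, and 4.23 RPKM, so the order of replicates 2 and 3 differed between these neighbours. *Grk1*, rhodopsin kinase, was at 2.17, 0.990, and 1.03 RPKM. *Th* was the one member on a list of 35 tissue-restricted membrane, sensory and neural proteins, and of its 28 other tested genes, 10 were called higher than in CCL21+RANK- TECs and 9 higher than in CCL21-RANK- TECs, with none lower. Among all tested genes, 15.4% and 14.4% were called higher. The whole list summed to 9.62 to 11.9 RPKM in CCL21+RANK- libraries and to 4.55 and 5.14 RPKM in CCL21-RANK- libraries, so most of its genes could not be called lower.

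The remaining groups were smaller. Liver and plasma proteins and metabolic enzymes numbered 14, with 5 at 0 counts elsewhere, and included the coagulation factors *F5* at 0.677, 0.260, and 0.290 RPKM and *F10* at 1.37, 0.635, and 0.591 RPKM. *Hgd*, an enzyme of tyrosine breakdown, was nearly level at 0.621, 0.625, and 0.555 RPKM. The 11 germ cell and placental proteins included the egg coat genes *Zp2* at 4.78, 0.871, and 1.80 RPKM and *Zp3* at 3.71, 0.814, and 1.38 RPKM. Both are on a list of 20 germ cell proteins. Of its 12 other tested genes 3 were called higher in each comparison, where 15.4% and 14.4% of all tested genes were called higher. None could be called lower, which needs more than 1 RPKM on average in the other group. The whole list summed to 0.765 to 1.01 RPKM in CCL21+RANK- libraries and to 0.706 and 0.775 RPKM in CCL21-RANK- libraries. The 6 skin proteins were led by *Mt4*, at 18.4, 6.11, and 6.05 RPKM and at 0 counts elsewhere. Corneodesmosin (*Cdsn*), an adhesion protein of cornified skin, was at 3.61, 0.670, and 1.93 RPKM. The 4 muscle proteins, *Myl7*, *Mybpc3*, *Car3*, and *Myh15*, were all highest in replicate 1, and *Myh15* differed least at 1.41, 1.02, and 1.12 RPKM.

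Some members lay close together. In all, 17 clusters, in which the next member lay within 200 kb, held 36 of the 196. Many of them paired members of one family, such as *Prg2* and *Prg3*, the gasdermins *Gsdma2* and *Gsdma*, the inhibitor heavy chains *Itih4* and *Itih1*, the butyrophilin-like *Btnl2* and *Btnl1*, the alkaline phosphatases *Alppl2* and *Alpi*, the phospholipases *Pla2g4d* and *Pla2g4f*, and *Oas1e* and *Oas1h*. Others joined unrelated genes, such as *Neurod2* with *Pnmt* and *Lcn10* with *Sohlh1*. Clusters of 3 were formed by *Ly6c2*, *Ly6g*, and *Ly6f* on chromosome 15 (75108158 to 75272235) and by *Clec12a*, *Clec12b*, and *Clec7a* on chromosome 6 (129342691 to 129472779). Members were found on 20 chromosomes. The share of all genes that lie this close together is not given, so these counts do not show more clustering than in other genes.

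Genes next to the members were counted against the background of all tested genes. The nearest tested genes on either side that were not members numbered 374. Of these, 96 (25.7%) were called higher than in CCL21+RANK- TECs and 48 (12.8%) lower, where 15.4% of all tested genes were called each way. Against CCL21-RANK- TECs, 100 (26.7%) were called higher and 35 (9.36%) lower, where 14.4% and 15.1% of all tested genes were called. Neighbours include relatives of members, genes left out by symbol, and genes that overlap a member. Among the last are *Slco1a5* at *Iapp*, which was called higher, and *Mtor* at *Angptl7*, which was not. Reads of overlapping pairs may not be assigned with certainty, so the share called higher may not be independent of the members. Without CCL21-RANK+ replicate 1, 347 of the neighbours were tested and 22.2% were called higher in each comparison, where 14.7% and 13.5% of all tested genes were called. The neighbours of largest fold change included *Gal3st2b*, beside the member *Gal3st2c*, with 718, 505, and 533 counts in CCL21-RANK+ libraries and at most 6 elsewhere. The serum amyloid gene *Saa1*, beside the member *Saa2*, had 641, 98, and 89 counts and at most 5 elsewhere. All 4 of these genes had values that were not whole numbers in a CCL21-RANK+ library before rounding. Some of their reads matched other genes as well, so reads may be divided between a member and its neighbour. On chromosome 18, the member *Slc6a7*, a proline transporter of synapses, lies between *Camk2a* and the intestinal factor *Cdx1*. Both neighbours were called higher, with 18806, 12668, and 11898 counts of *Cdx1* in CCL21-RANK+ libraries and 13 to 132 counts elsewhere.

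Annotated overlap touched 59 members, of which 18 overlapped a protein-coding gene. The share over all genes is not given for comparison. *Angptl7*, a secreted angiopoietin-like protein, lies on the strand opposite to *Mtor*. *Mtor* had 3487 to 7295 counts in each of the 8 libraries, whereas *Angptl7* had 726, 101, and 141 counts in CCL21-RANK+ libraries and at most 1 elsewhere. *Iapp* lies opposite to *Slco1a5*, which was itself higher in CCL21-RANK+ libraries (610, 161, and 205 counts against 2 to 21 elsewhere). The strand setting of the counting is not given in the sources used here, so reads of such pairs may not be assigned with certainty. In all, 20 members had values that were not whole numbers in a CCL21-RANK+ library, because some of their reads matched other genes as well. They include the near-identical relatives *Pirb* and *Pira2*, *Gsdma* and *Gsdma2*, *Ly6c2*, *Speer4c*, *Saa2*, and *Gvin1*, whose levels are therefore less certain.

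The threshold cut through a continuous range. The members with the lowest count were *Clec4f* (248, 50, and 67 counts in CCL21-RANK+ replicates 1, 2, and 3), *Grm7* (174, 50, and 59), and *Plcz1* (80, 108, and 50). Just outside lay *Gpr151* (134, 52, and 49 counts), *Slc17a6* (232, 49, and 75), and *Zg16* (327, 49, and 69), each with at most 1 count in any other library. On the other side of the rule, 34 members reached 3 counts (rounded) in another library. Genes just outside there included *Apob*, the apolipoprotein of chylomicrons, with 2232, 662, and 1000 counts in CCL21-RANK+ libraries and 4 counts in 2 other libraries, and *Lrrc15* with 2418, 489, and 789 counts and at most 4 elsewhere.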

How the data were processed

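RNA from sorted E17 TECs was sequenced in 8 libraries. Expected counts were deposited by the authors in a single table without normalization, in which RSEM divides reads that match several genes; the submitters' processing notes name bcl2fastq 2.20, Trimmomatic, STAR 2.5.1, RSEM 1.3.1, and the mm10 genome. The labels name a NEBNext Ultra II Directional kit, whereas the methods name TruSeq Stranded Total RNA. All 55450 gene identifiers matched GENCODE release M21 (GRCm38), which gave positions and exon lengths for RPKM. Totals ranged from 42751858 to 71625319 counts per library, and the floor was set at 3 counts.

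Groups came from the cell type labels. The deposited expected counts were rounded and fitted in edgeR 4.0.16 (R 4.3.3; TMM, default filter, quasi-likelihood test, Benjamini-Hochberg adjustment over 21451 genes, one fit of all 8 libraries). The self-test, on counts simulated for CCL21-RANK+ versus CCL21+RANK- with 20502 genes, recovered 85% of 200 genes changed 4-fold and called 8 others. Members were chosen on raw counts, and all 196 passed the filter. Members and lists were chosen with earlier results of these data known, and functional groups after the members were seen. Members were named for the highest mean RPKM (15), a CV among the highest or lowest, membership in a list, or closeness to the thresholds. Others were named for clustering, a shared symbol root, or to describe a shared function, and not every gene with an extreme CV was named. Genes of the lists were named where called or where they define a cell type. Promoter windows came from RefSeq (GRCm38.p6, matched by symbol) for 155 of 196 members (79.1%), too few for a check over all members, and for 154 of 192 protein-coding members, over which it was made. The listed genes *Spt1* and *Amy2a* were not matched in the table. Alternatives were DESeq2 1.42.0 (size factors, Wald test), other filters, thresholds and scalings, the replicate block, and leaving out each library. The alternatives without CCL21-RANK+ replicate 1 for neighbours, median level and fold bounds, and the expressed subsets of the promoter reference, were chosen after seeing the data. Figures were drawn with matplotlib 3.10.9. Values of some single genes are not reported here.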

Additional observations from a re-analysis of the deposited data

How the results depend on the processing

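The number of members followed its thresholds. It was 44 with 0 counts allowed elsewhere and 418 with 10, and 430 with 20 counts required in CCL21-RANK+ libraries and 68 with 100. Counts scaled to equal library totals gave 215 genes, 190 of them shared, and leaving out one library at a time gave 196 to 269. Genes called higher in CCL21-RANK+ TECs, 3307 over CCL21+RANK- and 3088 over CCL21-RANK- TECs, rose to 6558 and 5793 with the adjusted p alone. The listed RANK+ mTEC genes called higher over CCL21+RANK- TECs fell from 15 to 9 when at least 10 counts were required in every library, a filter that removes genes silent elsewhere. The other alternatives kept these counts within 1.5 times, and no log2 fold change named here changed sign. *Ccl17* lost significance against CCL21-RANK- TECs without CCL21-RANK- replicate 1 or 2 (adjusted p = 0.0703 and 0.0786 from edgeR), and *Epcam* without CCL21-RANK- replicate 1 (adjusted p = 0.125 from edgeR). Replicate numbers are shared between groups, but libraries of CCL21-RANK+ and CCL21+RANK- TECs with one number deviated from their group means with correlations of 0.126, 0.0485, and 0.0707, not all above 0.1, so they were not treated as pairs. Each of these 6 libraries correlated best with its own number, and pairs with different numbers ran from -0.0984 to 0.041, a hint from the data. In the deposited table, columns of one replicate number also stand side by side. The labels do not say whether such libraries share embryos, a sort, or a batch. With the replicate block, 3297 and 3046 genes were called higher. The share of CpG-rich promoters was 16.2% with 0 counts allowed elsewhere and 19.9% with no symbols left out, against 20.8%. Depth limits the low end of the set, where a member had as few as 50 counts in a library.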
